A study of Rattus norvegicus with 12 samples.

Results

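Interferons are cytokines that cells release on sensing foreign or misplaced nucleic acid. They bind paired receptors that activate Janus kinases (Jaks), which phosphorylate Stat proteins. Type I interferon signalling builds a complex with Stat2 and Irf9 that binds the interferon-stimulated response element (ISRE), whereas interferon gamma acts mainly at the gamma-activated site (GAS). The genes switched on in this way include further transcription factors and a set of antiviral effectors, and in the brain microglia and endothelial cells are among the cells that respond strongly.

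The interferon-induced genes described here are 9 of the 37209 genes in the table of raw counts, and each was found by its gene name. Of the 9, *Stat2*, *Irf9*, *Irf1* and *Irf7* encode transcription factors of the pathway, and *Isg15*, *Bst2*, *Gbp2*, *Ifit3* and *Mx2* encode effectors. They were compared between 6 rats exposed to chronic intermittent ethanol vapor (CIE) and 6 rats kept in air (Control). All 12 were male wild type Sprague Dawley rats of 14 to 16 weeks, and the brain was taken as soon as the last vapor or air exposure ended. Poly-A RNA from punches of the central nucleus of the amygdala (CeA), from 1 hemisphere per rat, gave 1 library per rat. Rats shared cages, and the cage of each rat is not given in the sources used here. In the labels the CIE rats come first (1 to 6) and the Control rats last (7 to 12), and any influence of that order cannot be told apart from CIE.

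Total counts lay between 62.0 M and 78.4 M per CIE rat (median 66.5 M) and between 39.1 M and 95.6 M per Control rat (median 71.9 M). Of 10 neuronal markers listed for the central amygdala, 9 were in the tested set, among them the peptide genes *Crh* and *Nts*. The share of each punch that came from outside the region was not tested. Levels below are CPM, the reads of a gene per M reads of the library, after TMM normalization, which corrects the library totals for their composition. A log2 fold change is CIE against Control, so that negative values stand for lower levels in CIE rats. It comes from the quasi-likelihood F test of edgeR (two-sided) over 20944 genes with enough counts, given with its standard error (SE) and 95% interval. The nominal p value is unadjusted, and FDR is the Benjamini-Hochberg adjusted p over the 20944 genes. All 9 interferon-induced genes passed the filter on low counts.

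The stretches before the start sites of these genes differ in the interferon response letters they hold. RefSeq promoters of rat assembly GRCr8 covered 7 of the 9 genes, and *Isg15* and *Mx2* had no entry. The ISRE was searched as the letters GAAANNGAAA and the GAS as TTCNNNGAA, on both strands, in the 250 bases before the start. *Bst2* and *Gbp2* are shown for having the smallest p values among the 9 genes, *Ifit3* because it holds the same ISRE letters, and *Irf1* as a gene with GAS letters alone. Each sequence runs 5′ to 3′ on the strand of its gene, and capitals mark the matches. The positions are *Bst2* chr16:18254968-18255217 (minus strand), *Gbp2* chr2:234005477-234005726 (plus), *Ifit3* chr1:241527076-241527325 (plus) and *Irf1* chr10:38417685-38417934 (plus), all in GRCr8.
Bst2: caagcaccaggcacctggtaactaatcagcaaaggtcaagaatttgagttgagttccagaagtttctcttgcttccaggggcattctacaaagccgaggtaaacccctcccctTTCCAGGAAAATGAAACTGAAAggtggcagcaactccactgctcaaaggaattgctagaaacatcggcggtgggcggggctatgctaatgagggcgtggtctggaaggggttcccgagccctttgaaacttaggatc
Gbp2: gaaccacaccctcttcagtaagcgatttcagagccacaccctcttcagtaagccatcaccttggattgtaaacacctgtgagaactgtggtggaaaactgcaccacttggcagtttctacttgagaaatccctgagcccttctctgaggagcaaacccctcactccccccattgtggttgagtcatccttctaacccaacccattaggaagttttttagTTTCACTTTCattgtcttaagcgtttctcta
Ifit3: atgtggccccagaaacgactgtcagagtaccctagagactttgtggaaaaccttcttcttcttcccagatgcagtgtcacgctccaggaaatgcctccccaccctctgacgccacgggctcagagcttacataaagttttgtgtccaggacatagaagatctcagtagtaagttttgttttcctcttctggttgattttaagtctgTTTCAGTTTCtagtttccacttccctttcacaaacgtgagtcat
Irf1: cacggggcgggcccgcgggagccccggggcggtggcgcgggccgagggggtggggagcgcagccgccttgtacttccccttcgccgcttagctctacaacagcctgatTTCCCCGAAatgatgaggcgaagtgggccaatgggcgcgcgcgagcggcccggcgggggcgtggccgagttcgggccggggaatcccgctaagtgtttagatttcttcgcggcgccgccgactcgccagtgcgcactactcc

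ISRE letters were found in the promoters of *Bst2*, *Gbp2*, *Irf7* and *Ifit3*, which is 4 of 7. Among all 33469 promoters in the table, 3.41% held them. In *Bst2* they occurred at 2 places that overlap each other, and the GAS letters share 3 bases with the first. In *Gbp2* the match ended 22 bases before the start, and in *Ifit3* 35 bases before it. GAS letters were found in *Bst2*, *Irf1* and *Irf9*, 3 of 7, against 7.67% of all promoters. For *Irf7* and *Irf9* the window lies inside the RefSeq span of the gene, and for *Stat2* it runs into that span. In these genes the window therefore precedes a start site within the gene and not its outermost start. Of the 85 promoters of other interferon pathway genes, 33 held the ISRE letters and 16 the GAS letters. These are matches of letters, not measured binding, and a window without a match says nothing about the factor.

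Among the 9 interferon-induced genes, *Gbp2*, *Bst2* and *Isg15* had lower levels in the CIE group at a nominal p value below 0.05, and none had a higher level at this threshold. This is 3 of 9 genes, where 8.31% of all genes tested passed in either direction and 4.31% passed as lower. At 5% FDR, edgeR called 0 of the 9 genes, and it called 0.363% of all genes. DESeq2 called *Gbp2* and *Bst2* as lower (0.658% of the 23694 genes it tested were), and limma-voom called *Gbp2* alone (0.731% of 20944 were lower). The median log2 fold change of the 9 genes was -0.17, against 0.00096 over all genes tested. The counts and the median describe genes that were picked with earlier results of these data known, and no test was made of the list as a whole.

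**Figure D1:**
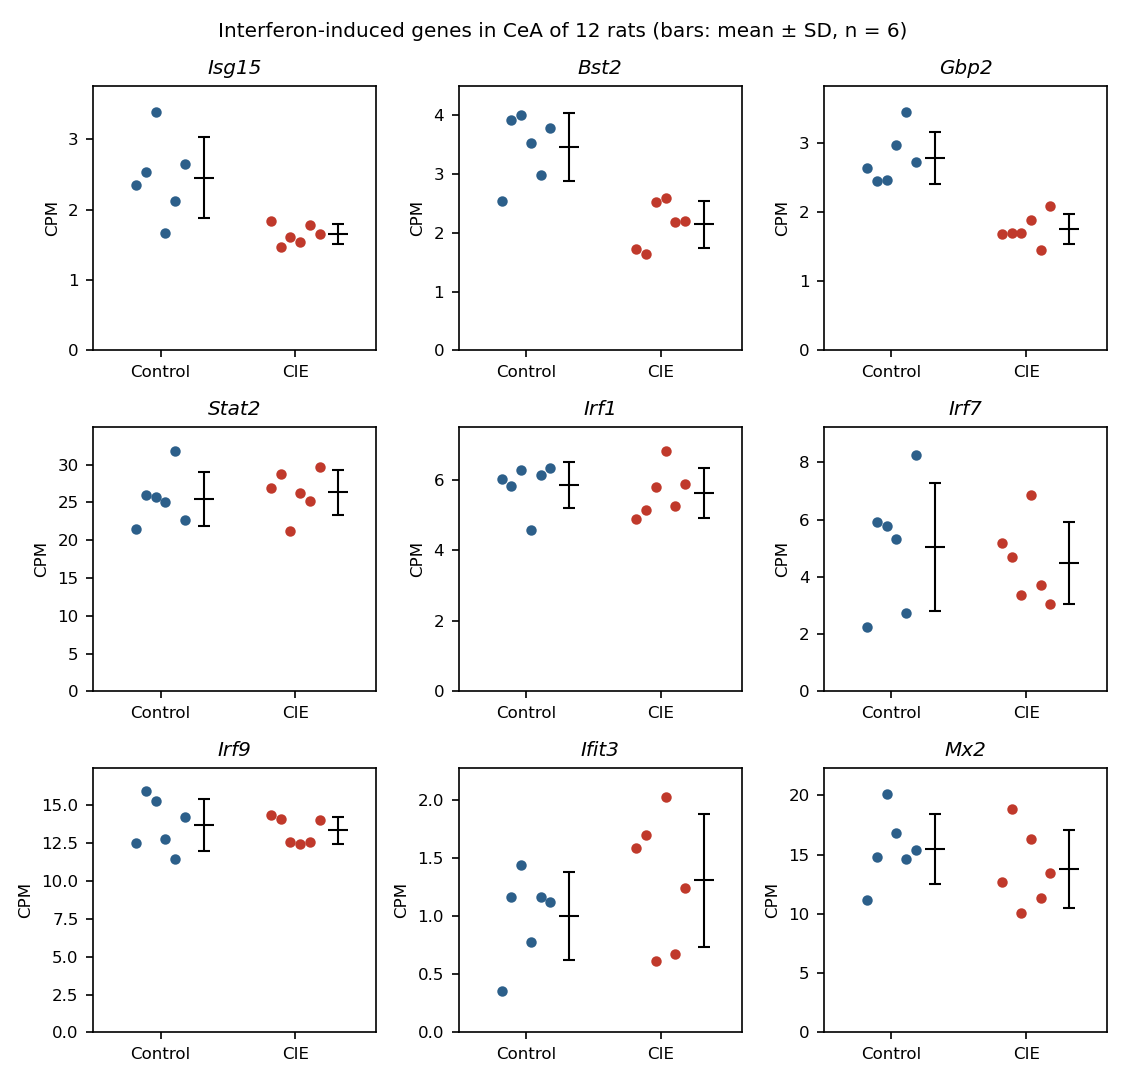
Level of each of the 9 interferon-induced genes in CPM (linear axes from 0) in 6 Control rats (blue) and 6 CIE rats (red), 1 point per rat in the order of rat numbers, with the mean and SD as black bars. The groups are separate for *Gbp2*, nearly separate for *Bst2* and *Isg15*, and overlap widely for the other genes.

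*Gbp2* encodes a guanylate-binding GTPase that is strongly induced by interferon gamma and acts on vacuoles holding microbes. Its level was lowest at 1.45, median 1.70 and highest at 2.08 CPM in CIE rats, and lowest at 2.45, median 2.67 and highest at 3.44 CPM in Control rats. All 6 CIE rats lay below all 6 Control rats, which was so for 0.554% of all genes tested. Means of 1.75 ± 0.21 CPM in CIE and 2.78 ± 0.37 CPM in Control rats (SD, n = 6 each) gave a log2 fold change of -0.66 (SE 0.14, 95% interval -0.95 to -0.37, edgeR FDR 0.0621). A two-sided exact permutation test of the 2 means gave p = 0.00216, the smallest that 6 against 6 rats allow. The FDR of *Gbp2* was 0.000626 in DESeq2 and 0.0438 in limma-voom. It ranged from 0.0343 without CIE rat 6, the CIE rat with the highest *Gbp2* level, to 0.148 without CIE rat 2 in edgeR fits that left out 1 rat. In bulk tissue, fewer cells of a type and less RNA per cell cannot be told apart, which holds for every level given here.

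*Bst2* encodes tetherin, a membrane protein that holds budding enveloped viruses at the cell surface. Its level was lowest at 1.63, median 2.18 and highest at 2.59 CPM in CIE rats, and lowest at 2.54, median 3.65 and highest at 4.002 CPM in Control rats. The groups overlapped only at 1 pair of ends, since Control rat 7 lay below CIE rat 4. The other 5 Control rats were above every CIE rat. For *Bst2* the log2 fold change was -0.69 (SE 0.16, 95% interval -1.04 to -0.35, edgeR FDR 0.113), on means of 2.14 ± 0.40 and 3.45 ± 0.58 CPM (SD, n = 6 each). The exact permutation test of the means gave p = 0.00433. The FDR was 0.00502 in DESeq2 and 0.0601 in limma-voom, and 0.0741 to 0.291 in edgeR with 1 rat left out.

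*Isg15* encodes a ubiquitin-like protein that is attached to other proteins after interferon treatment and is also secreted. Levels of *Isg15* were lowest at 1.47, median 1.63 and highest at 1.85 CPM in CIE rats, and lowest at 1.67, median 2.44 and highest at 3.38 CPM in Control rats. Control rat 10 lay inside the CIE range, and the other 5 Control rats were above every CIE rat. The CIE rats were close together, with a coefficient of variation of 8.68%, against 23.4% in Control rats. Raw counts of *Isg15* were 88 to 134 in CIE rats, and counting error was 11.04% at the 82 counts of Control rat 11. A spread of 8.68% is thus about what counting error alone can give, and the difference in spread was not tested. Its log2 fold change was -0.57 (SE 0.16, 95% interval -0.92 to -0.22, edgeR FDR 0.245), and the exact permutation test of the means gave p = 0.00649. The FDR was 0.0635 in DESeq2 and 0.0780 in limma-voom, and no fit of *Isg15* passed 5% FDR.

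These 3 genes were scarce in the tissue. Raw counts per rat ran from 101 to 236 for *Gbp2*, from 98 to 376 for *Bst2* and from 82 to 244 for *Isg15*. At the lowest of these counts, counting error alone was 9.95%, 10.1% and 11.04% of the value, if every count is independent. How the reads of a pair were counted is not given in the sources used here, so that the error may be larger. The nominal p value stayed below 0.05 for all 3 genes in each of the 19 alternative fits, and so did their direction.

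The other effectors, *Ifit3* and *Mx2*, had groups that overlapped widely. *Ifit3* encodes a partner of the Ifit proteins that bind foreign RNA ends. Its level was lowest at 0.618, median 1.415 and highest at 2.02 CPM in CIE rats, and lowest at 0.359, median 1.14 and highest at 1.44 CPM in Control rats. Among the 9 genes it varied most from rat to rat, with its highest level 5.64 times its lowest. Its log2 fold change was 0.38 with a wide interval of -0.37 to 1.14 (SE 0.35, edgeR FDR 0.831), and raw counts were as low as 27 in Control rat 7.

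*Mx2* encodes a dynamin-like GTPase that blocks the entry or replication of several viruses. In CPM, its level was lowest at 10.1, median 13.05 and highest at 18.9 CPM in CIE rats, and lowest at 11.2, median 15.1 and highest at 20.1 CPM in Control rats. The log2 fold change was -0.17 (SE 0.16, 95% interval -0.51 to 0.17, edgeR FDR 0.838). *Mx2*, *Ifit3* and *Gbp2* belong to families of similar genes, and the way reads shared with a similar copy were counted is not given in the sources used here, so that their counts are uncertain to this extent.

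None of the 4 transcription factors differed between the groups at a nominal p value below 0.05, in edgeR or in any of the 19 alternative fits. *Stat2* and *Irf9* encode parts of the complex that binds the ISRE. For *Stat2*, the level was lowest at 21.2, median 26.6 and highest at 29.7 CPM in CIE rats, and lowest at 21.5, median 25.4 and highest at 31.9 CPM in Control rats. For *Irf9*, it was lowest at 12.45, median 13.3 and highest at 14.3 CPM in CIE rats, and lowest at 11.5, median 13.5 and highest at 15.95 CPM in Control rats. In both genes the CIE and Control values were interleaved. The 95% interval of the log2 fold change was -0.17 to 0.27 for *Stat2* (estimate 0.05, SE 0.10, edgeR FDR 0.935) and -0.23 to 0.15 for *Irf9* (estimate -0.04, SE 0.09, edgeR FDR 0.942).

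*Irf1* encodes a factor that is induced quickly by interferon gamma. Levels of *Irf1* were lowest at 4.875, median 5.53 and highest at 6.83 CPM in CIE rats, and lowest at 4.58, median 6.09 and highest at 6.325 CPM in Control rats. The estimate was -0.06 on the log2 scale (SE 0.11, 95% interval -0.30 to 0.18, edgeR FDR 0.931).

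*Irf7* encodes the factor that amplifies production of type I interferon. Levels of *Irf7* were lowest at 3.05, median 4.21 and highest at 6.86 CPM in CIE rats, and lowest at 2.23, median 5.56 and highest at 8.25 CPM in Control rats. The spread was wide in both groups, with coefficients of variation of 31.7% and 44.2%, and Control rats held both the lowest and the highest value. The log2 fold change was -0.17 (SE 0.29, 95% interval -0.81 to 0.46, edgeR FDR 0.921). On the lower side the interval of *Irf7* reaches past the estimate for *Isg15* (-0.57), whereas those of *Stat2*, *Irf1* and *Irf9* do not.

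**Figure D2:**
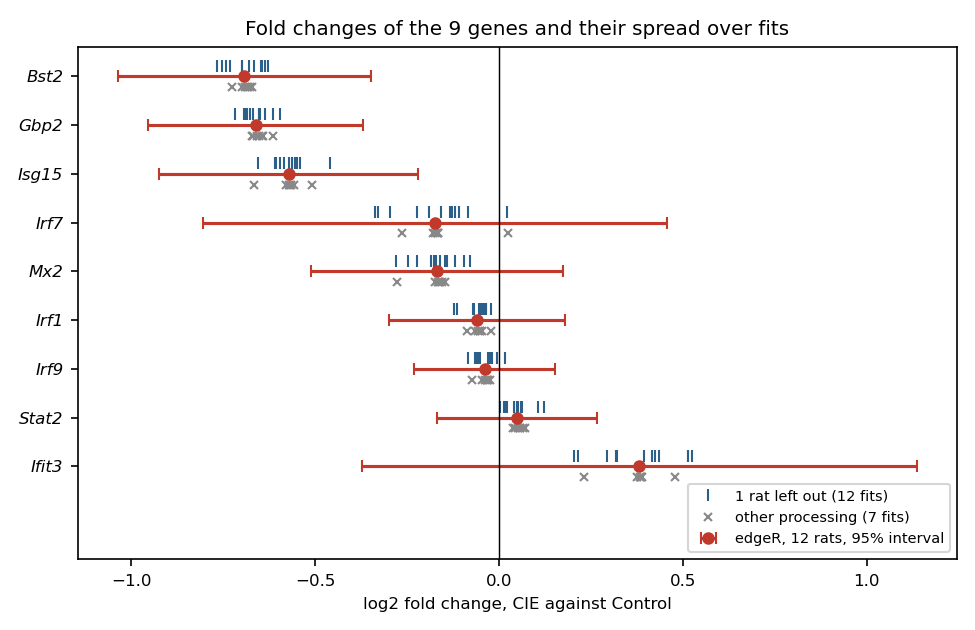
Log2 fold change of CIE against Control for each of the 9 genes, with red points and bars for the edgeR estimate and its 95% interval, blue ticks for the 12 fits that leave out 1 rat and grey crosses for 7 other ways of processing. The intervals of *Bst2*, *Gbp2* and *Isg15* lie below 0, and those of the other 6 genes include 0.

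The 9 genes were compared pair by pair in their variation from rat to rat. After removal of the group means, Pearson correlations of log2 CPM over 12 rats were positive in 27 of 36 pairs and negative in 9, with a median r of 0.20. The highest was between *Ifit3* and *Mx2* (Pearson r 0.82, permutation p = 0.00349, adjusted over 36 pairs 0.126) and Spearman's rho was 0.74 (permutation p = 0.0138, adjusted 0.366). It was 0.64 without CIE rat 3 and Control rat 7, and 0.85 within CIE rats and 0.79 within Control rats. Next were *Irf7* with *Ifit3* (Pearson r 0.66, permutation p = 0.0233) and *Stat2* with *Ifit3* (Pearson r 0.64, permutation p = 0.0403). Both had an adjusted p of 0.386. The lowest r was between *Isg15* and *Gbp2* (Pearson r -0.54, permutation p = 0.0940). No pair passed an adjusted p value of 0.05 in either measure. With 12 rats even the r of 0.82 did not pass, so that weak and moderate relations between the genes could not be told from none.

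A few rats lay at the ends of their group in several genes. Control rat 7 had the lowest Control level in 5 of the 9 genes (*Bst2*, *Stat2*, *Irf7*, *Ifit3* and *Mx2*). Control rat 9 had the highest Control level in 4 (*Isg15*, *Bst2*, *Ifit3* and *Mx2*), and CIE rat 4 the highest CIE level in 4 (*Bst2*, *Irf1*, *Irf7* and *Ifit3*). Without Control rat 7 the log2 fold change of *Irf7* was -0.33 and that of *Mx2* -0.25, and without Control rat 12, which had the highest *Irf7* level, that of *Irf7* was 0.021. The median over the 9 genes ranged from -0.25 without Control rat 7 to -0.036 without Control rat 12.

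**Figure D3:**
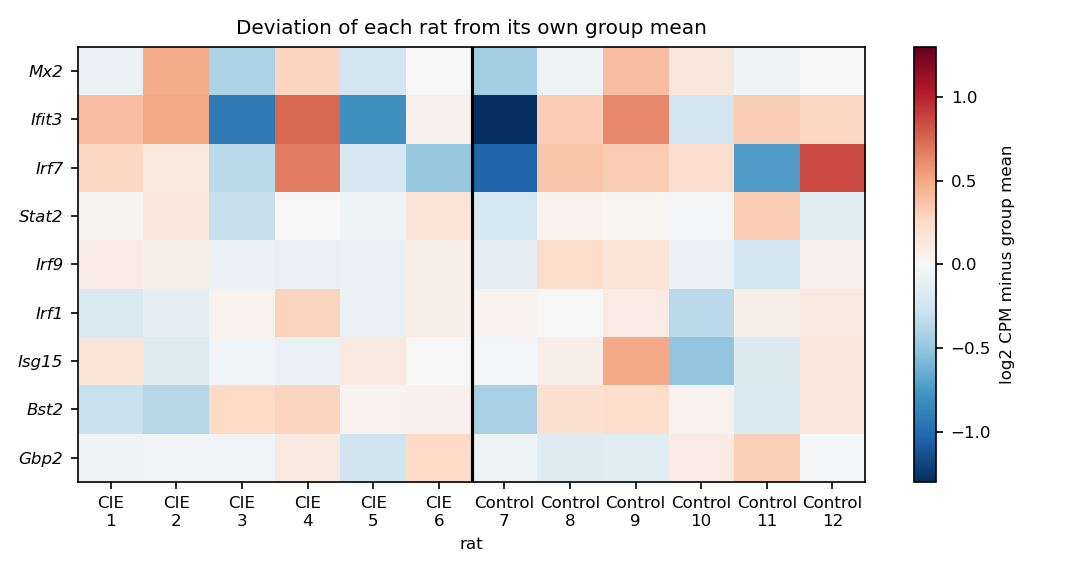
Deviation of log2 CPM from the mean of its own group for the 9 genes (vertical) in 6 CIE and 6 Control rats (horizontal), red above and blue below the group mean on a color scale from -1.3 to 1.3. *Ifit3* and *Irf7* hold the strongest colors, and Control rat 7 is blue in *Bst2*, *Stat2*, *Irf7*, *Ifit3* and *Mx2*.

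The genes most like the 9 in their variation over rats were sought among 20798 genes outside the lists, by Pearson r over 12 rats between log2 CPM with group means removed and the mean z score of the 9 genes. The 10 highest were LOC103694382 (0.90), LOC689841 (0.86), *Lsp1* (0.85), *Fut10* (0.85), LOC103691597 (0.85), LOC102547118 (0.83), LOC100910892 (0.82), *Cd163* (0.81), *Hmgn5b* (0.80) and *Btn2a2* (0.80). *Lsp1* is expressed in leukocytes and *Cd163* marks perivascular macrophages. Both had higher estimates in CIE rats, with log2 fold changes of 0.62 (*Lsp1*, edgeR FDR 0.7555) and 0.77 (*Cd163*, edgeR FDR 0.558). The 10 genes included both higher and lower estimates. Among genes of the pathway lists, *Usp18*, whose product removes Isg15 from proteins, had an r of 0.90, *Ifi44* 0.84 and *Herc6* 0.79, a comparison chosen after the values were seen. These values are a description of 12 libraries. The 10 are the highest of 20798 values, and how high such an r would reach by chance was not tested.

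The rest of the pathway was read from 6 lists of 107 genes, of which 99 were in the table and 83 passed the filter. At a nominal p value below 0.05, 5 of the 83 were lower and 5 higher in CIE rats, and 0 passed 5% FDR in edgeR. Of all genes tested, 8.31% passed the nominal threshold in either direction, 4.31% passed as lower and 0.363% passed 5% FDR. The same shares belong beside the counts of each pathway list below, and no list was tested as a whole. Of the 83 genes, DESeq2 called 1 (*Oas1f*, FDR 0.0454) and limma-voom 0. The shares above are those of edgeR. DESeq2 called 0.658% of the genes it tested as lower, and its share called as higher is not given here. The median log2 fold change over the 83 genes was -0.04.

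The ligands themselves were hardly detected. *Ifna1* had 0 to 4 counts per rat, *Ifna4* 0 to 8, *Ifnb1* 0 to 1 and *Ifne* 0 to 11, whereas *Ifng*, *Ifnk* and *Ifnl3* had 0 counts in every rat. A count of 0 allows up to 3 counts, or 0.0768 CPM in the shallowest library, and this limit covers counting error only. In the list of interferons and receptors, 6 of 14 genes were tested and 1 was higher at a nominal p value below 0.05. This was *Ifngr1*, the ligand-binding chain of the interferon gamma receptor, which was lowest at 42.4, median 45.7 and highest at 52.9 CPM in CIE rats, and lowest at 35.4, median 39.8 and highest at 44.3 CPM in Control rats (log2 fold change 0.26, SE 0.07, edgeR FDR 0.252). Of the type I receptor chains, *Ifnar2* had a log2 fold change of 0.21 (edgeR FDR 0.632) and *Ifnar1* of -0.05 (edgeR FDR 0.871), neither of them past a nominal p value of 0.05.

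In the list of Jak-Stat signalling and its brakes all 10 genes were tested and 2 were higher at this threshold. *Tyk2*, the kinase on the type I receptor, had a log2 fold change of 0.25 (edgeR FDR 0.504), and its nominal p value was above 0.05 without CIE rat 1, CIE rat 6, Control rat 11 or Control rat 12. *Pias1*, an inhibitor of Stat signalling, had one of 0.14 (edgeR FDR 0.594), with a nominal p value below 0.05 in only 3 of the 12 fits that left out 1 rat, those without CIE rat 3, Control rat 10 or Control rat 12. *Ptpn11*, a phosphatase, had one of 0.19 (edgeR FDR 0.619) and did not pass.

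None of 6 other interferon regulatory factors and none of 14 tested genes of nucleic acid sensing passed a nominal p value of 0.05 in edgeR. The smallest p values were those of *Irf2* (log2 fold change 0.16, edgeR FDR 0.653), *Irf4* (log2 fold change 0.33, FDR 0.721) and *Irf8* (log2 fold change -0.19, FDR 0.803) among the regulatory factors. Among the sensing genes they were those of *Tmem173*, which encodes the adaptor Sting (log2 fold change -0.38, edgeR FDR 0.606), the kinase gene *Ikbke* (log2 fold change 0.30, FDR 0.682) and the RNA sensor gene *Ifih1* (log2 fold change 0.32, FDR 0.696).

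The 4 genes that attach Isg15 to proteins or remove it were all tested, and 1 was lower at a nominal p value below 0.05. *Ube2l6*, the conjugating enzyme of this reaction, was lowest at 1.19, median 1.38 and highest at 1.48 CPM in CIE rats, and lowest at 1.42, median 1.64 and highest at 2.77 CPM in Control rats. As with *Isg15*, 5 Control rats lay above every CIE rat. The log2 fold change of *Ube2l6* was -0.51 (SE 0.19, edgeR FDR 0.460), and its p value was above 0.05 without Control rat 8 or Control rat 9. The ligase gene *Herc6* had a log2 fold change of 0.20 (edgeR FDR 0.838) and *Usp18* of -0.16 (edgeR FDR 0.934).

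Among 43 tested genes of 56 other induced effectors, 4 were lower and 2 higher in CIE rats at a nominal p value below 0.05. *Ifitm3*, which blocks the fusion of viruses in endosomes, was lowest at 1.38, median 2.18 and highest at 2.77 CPM in CIE rats, and lowest at 2.38, median 3.22 and highest at 4.16 CPM in Control rats (log2 fold change -0.57, SE 0.18, edgeR FDR 0.314). *Rsad2* encodes viperin, an enzyme that makes a chain-ending nucleotide, and was lowest at 1.42, median 2.29 and highest at 4.03 CPM in CIE rats, and lowest at 3.41, median 4.60 and highest at 5.61 CPM in Control rats (log2 fold change -0.73, SE 0.24, edgeR FDR 0.351). For both genes 4 Control rats lay above every CIE rat. *Ifi35* (log2 fold change -0.40, edgeR FDR 0.568) and *Gbp4*, a relative of *Gbp2* (log2 fold change -0.77, edgeR FDR 0.587), had nominal p values below 0.05 in edgeR in only 6 and 5 of the 12 fits that left out 1 rat. The fits of *Ifi35* above 0.05 were those without CIE rats 1, 2 or 3 or Control rats 9, 10 or 12, and those of *Gbp4* were without CIE rats 2, 3, 4 or 5 or Control rats 8, 9 or 12.

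The higher effectors were both of the 2′-5′-oligoadenylate synthetase family, which senses double-stranded RNA. *Oas1f* was lowest at 0.223, median 1.29 and highest at 1.66 CPM in CIE rats, and lowest at 0.258, median 0.428 and highest at 0.562 CPM in Control rats. In 5 CIE rats the level was above every Control rat, and in the other it was below every one. The log2 fold change of *Oas1f* was 1.37 (SE 0.40, edgeR FDR 0.248), on raw counts of 10 to 115, and its FDR was 0.412 in limma-voom. *Oasl2* had a log2 fold change of 0.26 (SE 0.10, edgeR FDR 0.458). The rat has several closely similar *Oas1* genes, so that the share of reads given to each is uncertain.

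**Figure D4:**
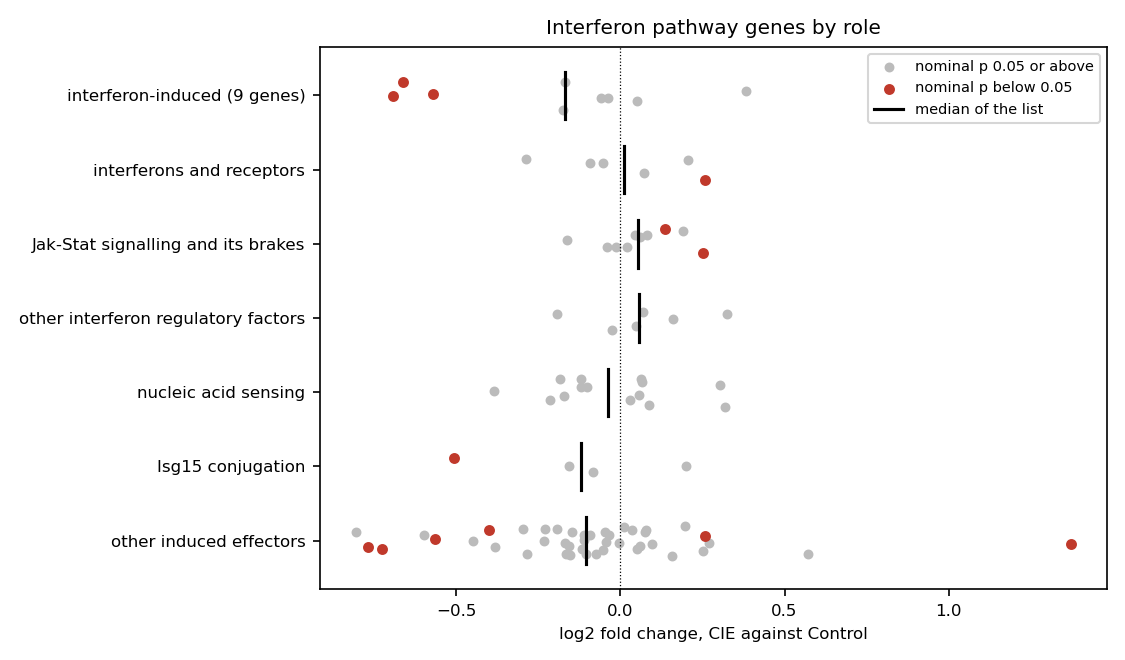
Log2 fold change of CIE against Control (horizontal) for the 9 interferon-induced genes and for the 83 tested genes of 6 other interferon pathway lists (vertical), 1 point per gene, red where the edgeR nominal p value was below 0.05, with a black bar at the median of each list. The 3 red points among the 9 genes lie between -0.69 and -0.57, and the point far to the right is *Oas1f* at 1.37.

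Some markers of cells that could carry these genes also differed between the groups. For the counts of markers, the shares over all genes tested were again 8.31% at the nominal threshold, 4.31% as lower and 0.363% at 5% FDR in edgeR. Of 16 microglial markers, all tested, 2 were lower at a nominal p value below 0.05 in edgeR, *Cx3cr1* (log2 fold change -0.28) and *P2ry13* (-0.34). Of the 16, 11 had lower and 5 had higher estimates in CIE rats, with a median log2 fold change of -0.054. The summed level of the list was 505 to 655 CPM in CIE rats and 556 to 653 CPM in Control rats. Of 16 endothelial markers 14 were tested, 5 of them lower and 2 higher at the same threshold. The 2 higher were *Abcb1a* (log2 fold change 0.25) and *Slc2a1* (0.19), and among the lower *Kdr* passed 5% FDR (-0.92, edgeR FDR 0.0116). The summed level of the 14 was 399 to 548 CPM in CIE rats and 428 to 526 CPM in Control rats. No marker of these lists was at 0 counts in every rat.

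Blood leukocyte markers were scarce, with 5 of 14 tested and 8 removed by the filter, among them the T cell genes *Cd3e* and *Cd3g* and the B cell gene *Ms4a1*. Of the 5 tested, 1 had a nominal p value below 0.05 in edgeR and 4 did not, and 1 of the 5 had a higher estimate in CIE rats. The 1 that passed was *Il2rg*, a cytokine receptor chain of lymphocytes. It was lower with no overlap of the groups (log2 fold change -1.53, edgeR FDR 0.0297), where all CIE rats lay below all Control rats in 0.554% of all genes tested. The summed level of the list was 11.8 to 15.6 CPM in CIE rats and 14.4 to 25.1 CPM in Control rats. At a nominal p value below 0.05 in edgeR, 2 of 10 astrocyte markers were lower and 2 higher. Of 9 tested central amygdala neuron markers 2 were lower at this threshold, *Crh* and *Nts*. Among the 9, 7 had lower and 2 had higher estimates, with log2 fold changes from -0.46 to 0.48. The summed level of these 9 neuron markers varied widely, from 1763 to 3452 CPM in CIE rats and from 1940 to 3810 CPM in Control rats. The part of these cell types in the levels of *Gbp2*, *Bst2* and *Isg15* was not tested.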

How the data were processed

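Paired reads of 12 CeA libraries were aligned by the authors with BWA (Rnor_6.0), and HTSeq gave the read counts per gene that were deposited, with no normalization and 1 column per rat. The submitters' processing notes name Rnor_6.0, HTSeq and DESeq2 1.26. Gene annotation, strand setting and treatment of reads shared by genes are not given in the sources used here.

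The 9 genes, the pathway lists and the marker lists were chosen with earlier results of these data known. Counts were fitted over the whole table in R 4.3.3 with edgeR 4.0.16 (TMM, filterByExpr, quasi-likelihood F test, no covariates), and the listed genes were then read from it. SE was derived from F, as |log2 fold change| over its root. Alternatives were DESeq2 1.42.0, limma-voom with quality weights (limma 3.58.1), 1 surrogate variable (sva 3.50.0), size factors of DESeq2 or library totals in place of TMM, a filter of 10 counts in each rat or none, and leaving out each of 12 rats. The fits were checked on simulated counts. Named genes are the 9, the 3 genes with the smallest p of each pathway list with any past 5% FDR, and the 10 genes most like the 9 over rats. Other pathway and marker genes were named after their values were seen. Correlations used log2 CPM with a prior count of 2 and 100000 permutations within groups. These ran in Python 3.11.15 (pandas 2.3.3, numpy 2.4.6, scipy 1.17.1), and plots in matplotlib 3.10.9.

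Promoters and names came from RefSeq GRCr8. No position was taken from it for the counts, whose build differs, and in GRCr8 the span of none of the 9 genes overlapped another gene. Rats are taken as independent samples. Precision rests on the spread over 6 rats per group. The shallowest library (39.1 M counts, Control rat 11) held the lowest count of *Isg15*. The lowest counts of *Gbp2*, *Bst2* and *Ifit3* were in CIE rat 5, CIE rat 2 and Control rat 7.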

Additional observations from a re-analysis of the deposited data

Results flagged for a closer look

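In 60 groups of 6 rats (30 genes of the interferon pathway, CIE and Control apart), the lowest or highest rat lay far from the others of its group in 3. By chance about 1 in 20 groups would do so. *Irf1* was at 4.58 CPM in Control rat 10, whereas the other Control rats lay between 5.82 and 6.325 CPM. *Pias1* was at 32.8 CPM in CIE rat 3, with the other CIE rats between 37.7 and 39.5 CPM. *Ikbke* was at 5.01 CPM in Control rat 8, with the other Control rats between 3.14 and 3.75 CPM.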

How the results depend on the processing

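All fits used the 12 rats or 11 of them. Of the 9 genes, 3 passed a nominal p value of 0.05 in each of the 19 alternatives. At 5% FDR, 2 of the 9 were called by DESeq2 and 1 by limma-voom, and 0 to 1 with 1 rat left out, the 1 being *Gbp2* without CIE rat 6. The median log2 fold change of the 9 was -0.17 and lay between -0.25 and -0.036 with 1 rat left out. The estimate of *Irf7* was 0.025 under limma-voom and -0.34 to 0.021 with 1 rat left out, and that of *Irf9* was -0.084 to 0.017 with 1 rat left out, so that neither has a settled direction. Of the other pathway genes, 1 passed 5% FDR under DESeq2. With 1 rat left out 6 (without Control rat 9) to 14 (without CIE rat 3) had a nominal p value below 0.05, against 10 with all rats. The share of 8.31% over all genes belongs to the fit of all 12 rats. Shares for the fits with 1 rat left out are not given here, so these counts cannot be read as particular to the pathway. The cause of these shifts was not tested.

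Low counts per rat limit *Gbp2* (101 to 236), *Bst2* (98 to 376) and *Isg15* (82 to 244). Lower ones limit *Ifit3* (27 to 136) and *Oas1f* (10 to 115). Effects of cage and of reads shared within gene families were not tested, and the order of the rats cannot be told apart from CIE. Promoter matches carry no measurement of binding, and protein was not measured. No paired analysis was made, because the paper describes random assignment of rats to the groups and the labels name no pairs.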
